A study of Homo sapiens with 12 samples.

Results

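The dual-specificity MAP kinase phosphatases described here are DUSP1, DUSP2, DUSP4, DUSP5, DUSP6, DUSP8, DUSP10 and DUSP16. They were taken by gene symbol, and each symbol had its own row, so that 8 of the 42157 genes counted are members. The libraries were made from HL-60, an established line grown from a human acute myeloid leukemia (AML). The 4 groups received the vehicle dimethyl sulfoxide (DMSO), 1 µM daunorubicin (DNR), 0.5 µM ML-792, or 0.5 µM ML-792 with 1 µM DNR (ML-792+DNR), each for 3 h. DNR, an anthracycline given to AML patients, inserts between DNA bases and poisons topoisomerase II, and ML-792 blocks the enzyme that activates the protein modifier SUMO. Each group held 3 replicates of polyadenylated RNA, which the study's methods describe as independent experiments. All 4 groups come from this 1 line, so that the spread between replicates is that between cultures, not between patients.

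MAP kinases are switched on when an upstream kinase phosphorylates a threonine and a tyrosine in their activation loop. The phosphatases of this family remove both phosphates, and many of their genes are themselves switched on by MAP kinase signalling, which makes them feedback inhibitors of the pathway. They fall into nuclear enzymes encoded by inducible genes (DUSP1, DUSP2, DUSP4 and DUSP5), a cytoplasmic branch selective for the kinase ERK (DUSP6 here), and a branch that prefers the stress kinases JNK and p38 (DUSP8, DUSP10 and DUSP16).

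Promoter sequences of the members are shown first, as a description. RefSeq windows on GRCh38.p14, from 250 bases before to 50 bases after each start site, matched 6 of the 8 members by symbol. DUSP4 and DUSP5 had no entry. The windows were searched on both strands for the cAMP response element (CRE, TGACGTCA), for its TGACG core, which every CRE also contains, for the AP-1 site TGANTCA, the E-box CACGTG, the ETS site CCGGAAGT and the EGR site GCGNGGGCG, and for the NF-kB site and the CArG box by name. The excerpts below run 5′ to 3′ on the minus strand, where all 6 genes lie, and capitals mark matches to CRE, E-box or EGR letters.

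DUSP1, chr5:172771286-172771375: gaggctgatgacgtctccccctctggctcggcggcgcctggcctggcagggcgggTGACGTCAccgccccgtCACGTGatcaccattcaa

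DUSP8, chr11:1572322-1572401: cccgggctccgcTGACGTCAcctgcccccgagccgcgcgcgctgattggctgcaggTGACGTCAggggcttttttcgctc

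DUSP2, chr2:96145511-96145570: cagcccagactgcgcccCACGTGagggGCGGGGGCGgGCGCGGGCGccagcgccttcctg

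DUSP16, chr12:12562944-12563003: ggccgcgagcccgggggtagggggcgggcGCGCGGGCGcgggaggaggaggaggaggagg

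DUSP10, chr1:221742180-221742269: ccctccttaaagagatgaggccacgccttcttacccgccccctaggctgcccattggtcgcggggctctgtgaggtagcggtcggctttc

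DUSP6, chr12:89352592-89352681: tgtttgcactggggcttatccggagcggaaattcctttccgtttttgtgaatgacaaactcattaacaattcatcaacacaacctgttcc

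A whole CRE was found in 1.85% of the 35116 RefSeq promoter windows. Among the members it lay 125 bases before the DUSP1 start site and 118 and 74 bases before the DUSP8 start site. The E-box, present in 7.26% of windows, lay 108 bases before the start of DUSP1 and 113 bases before that of DUSP2. EGR letters, in 9.43% of windows, were found 103 and 93 bases before the start of DUSP2 and 111 bases before that of DUSP16. The TGACG core, in 24.6% of windows, was found outside a whole CRE 172 and 111 bases before the start of DUSP1 and 4 bases before the second annotated start site of DUSP10. No member window held the AP-1, ETS, NF-kB or CArG letters, which occur in 7.71%, 4.14%, 5.91% and 1.29% of windows. A match is a run of letters and not a measured binding site. Of the members with a whole CRE, DUSP1 rose with DNR and DUSP8 was nearly without reads, as given below. DUSP10 and DUSP16, whose windows held no whole CRE, also rose. A link between these letters and the changes was not tested.

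On GRCh37, the build used for counting, DUSP1 lies at chr5:172195099-172198198, DUSP2 at chr2:96808908-96811179, DUSP4 at chr8:29190581-29208201, DUSP5 at chr10:112257665-112271291, DUSP6 at chr12:89741012-89746278, DUSP8 at chr11:1575281-1593501, DUSP10 at chr1:221874766-221915431 and DUSP16 at chr12:12626216-12715797. DUSP5 lies on the plus strand and the other members on the minus strand. The spans of DUSP1, DUSP6 and DUSP8 each overlap 1 long noncoding RNA of the opposite strand and that of DUSP16 overlaps 2, so that reads of these 4 genes and their antisense partners could mix if strand was not used in counting. That strand setting was not given in the sources used here.

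The libraries held 28647951 to 46451654 reads in genes, and 13696 genes passed the filter on low counts. Of the members, 7 passed it, and DUSP8 did not. DUSP1 passed it only through the DNR-treated groups, where it was higher, so its rise was in part a condition of its being tested. The replicate 1 libraries of all 4 groups had the highest share of mitochondrial transcripts, at 4.01% to 6.37% of reads, and the other 8 libraries had 2.49% to 3.48%. The myeloid identity of the line was plain: 7 of 10 granulocytic markers reached 5 CPM (counts-per-million values on scaled library sizes) in each group, led by myeloperoxidase (MPO) at 11264 CPM in DMSO, although the neutrophil elastase gene ELANE stood at 0.675 CPM there. Of the markers of other cells, none of 9 erythroid genes reached 5 CPM and HBB had no read, 2 of 10 lymphocyte genes did (CD4 and NKG7, with CD3E at 0) and 1 of 11 stromal and epithelial genes did (VIM, with EPCAM at 0). Their summed levels were 0.518 to 1.31 CPM for the erythroid, 69.4 to 96.7 CPM for the lymphocyte and 143 to 187 CPM for the stromal and epithelial list over all 12 libraries.

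The first question is which of the phosphatase genes these myeloid cells use. To compare genes with each other, levels were expressed per length, as CPM divided by the exon length in kb (RPKM). In DMSO cells DUSP6 led with 18.0 ± 0.751 RPKM (SD, n = 3 here and below). DUSP10 followed at 4.53 ± 0.593 RPKM and DUSP2 at 3.94 ± 0.128 RPKM, and the libraries of these neighbours overlapped. DUSP5 stood at 2.1 ± 0.0790, DUSP16 at 0.946 ± 0.0639 and DUSP4 at 0.601 ± 0.139 RPKM. DUSP1, an inducible enzyme found in many cell types, was close to absent at 0.0553 ± 0.00560 RPKM. DUSP8 was lowest with 0.00290 RPKM. Apart from the pair DUSP10 and DUSP2, neighbours in this order did not overlap between DMSO libraries, except that DUSP8 rests on 2 reads in 1 library. An error in the exon length of a gene would be shared by all libraries, so that non-overlap between them does not cover it.

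With DNR the order of the mean levels stayed DUSP6, DUSP10, DUSP2, DUSP5, DUSP16, DUSP4, DUSP1 and DUSP8, but the distances between them changed. DUSP6 stood at 19.3 ± 1.73 RPKM and DUSP10 at 13.1 ± 0.50 RPKM. DUSP2, at 7.48 ± 2.80 RPKM, and DUSP5, at 5.43 ± 1.28 RPKM, overlapped between libraries. Summed over the 8 members, the level was 30.1 ± 1.18 RPKM in DMSO, 48.9 ± 1.44 in DNR, 26.8 ± 0.563 in ML-792 and 41.5 ± 2.09 in ML-792+DNR. DUSP6 made up 59.6% ± 0.490 of that sum in DMSO and 39.6% ± 3.56 in DNR, while DUSP10 went from 15% ± 1.57 to 26.8% ± 0.337. In ML-792 the share of DUSP6 was 47.3% ± 2.15 and in ML-792+DNR 41.5% ± 3.28. Most of the summed level was thus DUSP6 in DMSO cells, while in DNR cells DUSP10, DUSP2 and DUSP5 together exceeded it. The shares of 1 library add to a whole, so that they are not independent of each other.

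**Figure D1:**
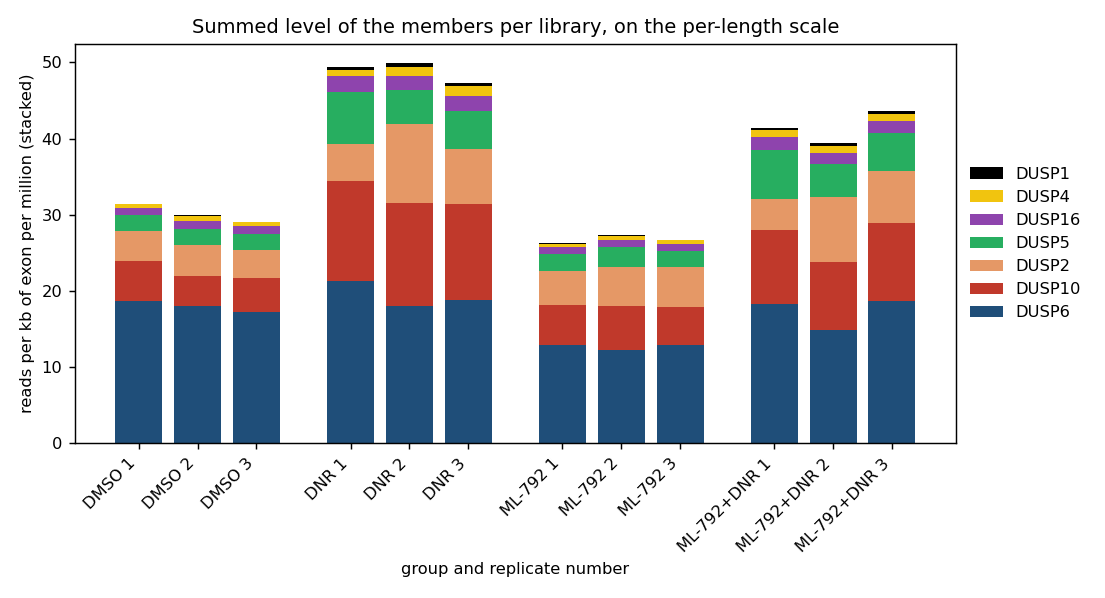
Stacked bars give the level of each phosphatase gene in each of the 12 libraries in RPKM (DUSP8, at most 0.0250, is too low to be drawn). The bars of the DNR libraries reach 47.2 to 49.9 and those of the DMSO libraries 29.1 to 31.4, with most of the added height from DUSP10, DUSP5 and DUSP2.

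From here on, levels of a gene between libraries are CPM, and changes are log2 fold changes with their standard errors from edgeR's quasi-likelihood test on all 12 libraries. Called genes had a Benjamini-Hochberg adjusted p below 0.05 over all tested genes and a change of at least 2-fold.

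After 3 h of DNR, 4 of the 7 tested members were called higher than in DMSO cells (DUSP1, DUSP5, DUSP10 and DUSP16), and 4.07% of all tested genes were called higher. DUSP2 and DUSP4 passed the adjusted p at a change under 2-fold, so that 6 of the 7 passed it upwards, beside 14.3% of all tested genes. DUSP6, the most abundant member, had no detectable change. In 6 of the 7 the DNR libraries all lay above the DMSO libraries, which held for 23.0% of tested genes. DUSP1 is in each of these counts, although it was tested only because of its reads in the DNR-treated groups. No member was called lower, as 2.91% of tested genes were. In bulk RNA of this kind, fewer cells that express a gene and less of its RNA per cell cannot be told apart.

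DUSP10, a phosphatase of JNK and p38, had the lowest edgeR adjusted p of the members. It stood at 14.6, 11.3 and 12.5 CPM in DMSO replicates 1, 2 and 3 and at 37.2, 38.4 and 35.6 CPM in DNR replicates 1, 2 and 3. The groups were far apart, with the lowest DNR library more than 2-fold above the highest DMSO library. This 2.89-fold rise was 1.53 ± 0.11 on the log2 scale (edgeR adjusted p = 6.87e-07).

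DUSP16, its relative with the same preference, rose less. Its levels were 6.30, 6.72 and 7.21 CPM in the DMSO replicates and 15, 13.1 and 14.1 CPM in the DNR replicates, again with no overlap. The log2 fold change was 1.06 ± 0.12 (edgeR adjusted p = 3.70e-05). It lay so close to the 2-fold limit that the call was lost without DMSO replicate 1, at 0.997, and with replicates 2 and 3 only, at 0.95, while the adjusted p stayed below 0.05 in all 19 alternative settings.

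DUSP8, the remaining member of that branch, gave almost no reads. It had 2, 0 and 0 reads in the DMSO replicates, 1, 4 and 1 in the DNR replicates, none in the 3 ML-792 replicates and 0, 1 and 3 in the ML-792+DNR replicates. A count of 0 in the ML-792 libraries allows up to 0.0788 to 0.0895 CPM per library, by counting error alone. A difference between groups was not detectable at this depth. The near copy DUSP8P5 had 22 to 56 reads per library, so that reads shared between the copies could have been set aside or misplaced, whereas DUSP8P3 and DUSP8P4 had none.

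Among the nuclear phosphatases, DUSP1, which acts on p38, JNK and ERK, had the largest fold change of the members at the lowest tested level. It was counted with 5, 4 and 4 reads in DMSO replicates 1, 2 and 3 and with 28, 34 and 25 reads in the DNR replicates. In CPM these are means of 0.111 ± 0.0113 and 0.880 ± 0.151. Every DNR library was thus higher than every DMSO library, but the gene remained below 1.1 CPM throughout. On the log2 scale the change was 2.95 ± 0.35 (edgeR adjusted p = 4.87e-05), with a 95% interval from 4.58-fold to 13.1-fold.

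DUSP5, a nuclear phosphatase selective for ERK, stood at 5.27, 5.54 and 5.15 CPM in the DMSO replicates and at 17.4, 11.3 and 12.6 CPM in the DNR replicates. All 3 DNR libraries were higher, and replicate 1, which also had the high mitochondrial share, stood out above the others. DUSP5 thus rose by 1.37 ± 0.18 on the log2 scale (edgeR adjusted p = 0.000114). Without DNR replicate 1 it was 1.16, still past the test.

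DUSP2, a nuclear phosphatase known from activated leukocytes, was uneven between the DNR replicates. The DMSO replicates lay close together at 7.77, 7.71 and 7.32 CPM. The DNR replicates were spread over 9.28, 20.1 and 13.9 CPM. Here DNR replicate 1 was the lowest, only just above the DMSO libraries, the opposite of its place for DUSP5. The log2 fold change was 0.92 ± 0.27 (edgeR adjusted p = 0.0191). It fell to 0.60 (edgeR adjusted p = 0.0940) without DNR replicate 2 and reached 1.16, past the 2-fold limit, without DNR replicate 1. The adjusted p was also above 0.05 without DMSO replicate 1 (0.0567) and without DMSO replicate 3 (0.0631). The part of the mitochondrial share in the differences of replicate 1 was not tested.

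DUSP4, the close relative of DUSP1 in the nucleus, was at 3.56, 5.51 and 4.05 CPM in DMSO and at 5.74, 8.37 and 9.39 CPM in DNR. The groups did not overlap, but the lowest DNR library lay only just above the highest DMSO library. The log2 fold change was 0.84 ± 0.21 (edgeR adjusted p = 0.00805). It reached the 2-fold limit without DMSO replicate 2, at 1.03, and without DNR replicate 1, at 1.02.

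DUSP6, the cytoplasmic ERK phosphatase and a standard readout of ERK activity, was at 72.2, 69.4 and 66.4 CPM in DMSO and at 82.1, 69.3 and 72.5 CPM in DNR. The groups overlapped. The log2 difference of 0.11 ± 0.09 did not pass the edgeR test (adjusted p = 0.429), and its 95% interval from -0.09 to 0.31 holds no change of 2-fold.

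**Figure D2:**
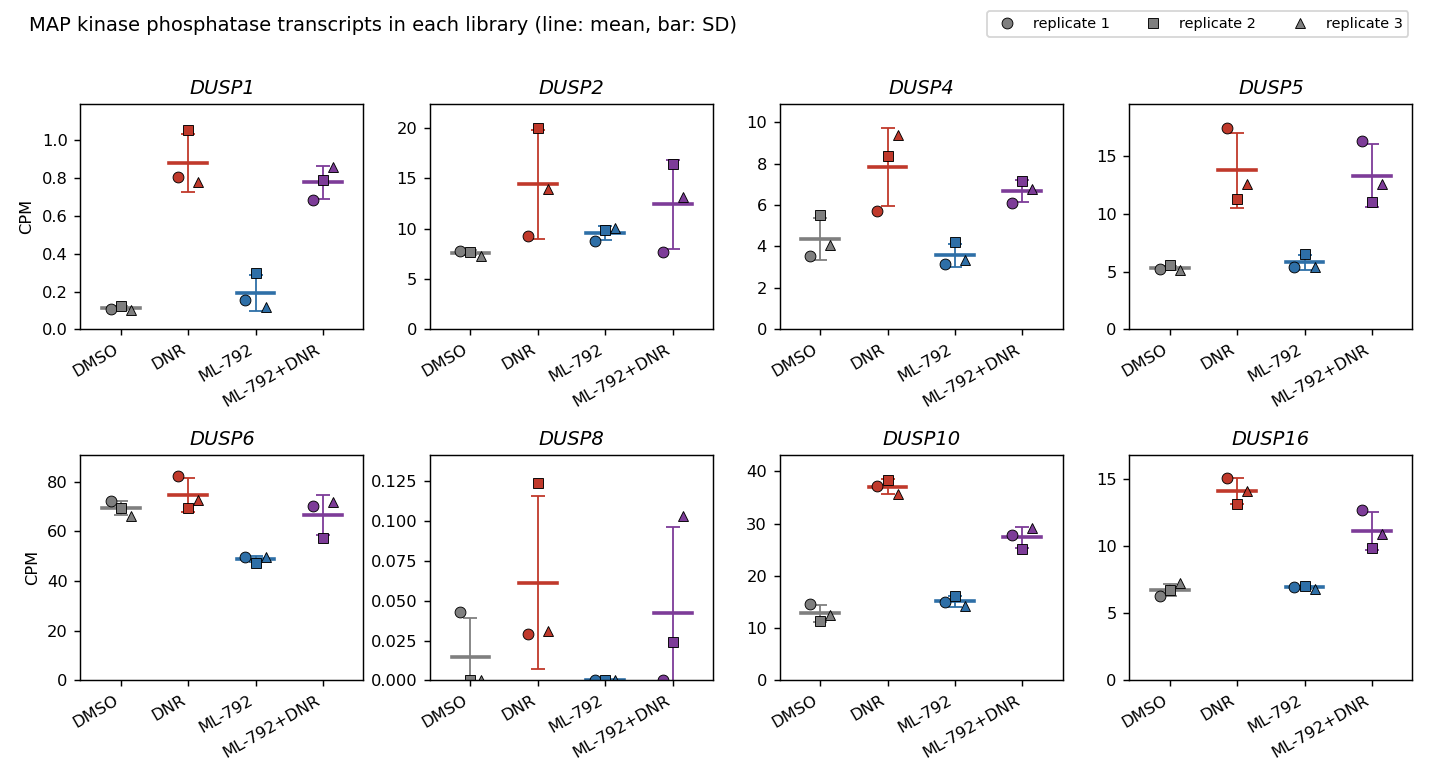
Each panel shows 1 phosphatase gene in CPM, with the 3 replicates of each group as a circle, square and triangle, the group mean as a line and the SD as a bar. DUSP10, DUSP16, DUSP5 and DUSP1 are high in both groups that received DNR, DUSP6 is low in ML-792 alone, and the DNR-treated replicates of DUSP2 are spread from 7.69 to 20.1 CPM.

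ML-792 alone addresses whether loss of SUMO conjugation by itself moves these genes. No member was called, and of all tested genes 0.0803% were called in either direction. DUSP6 was the 1 member with an adjusted p below 0.05, and it was lower, which was the case for 0.0584% of tested genes. Its ML-792 replicates stood at 49.5, 47.4 and 49.7 CPM, all below the lowest DMSO replicate at 66.4 CPM, a separation downwards seen in 5.98% of tested genes. The log2 fold change was -0.51 ± 0.09 (edgeR adjusted p = 0.0473), with a 95% interval from -0.71 to -0.30. The size hardly depended on the setting, at -0.54 to -0.48, but the adjusted p was below 0.05 in 8 of 19 alternative settings only. It rose to between 0.127 and 0.242 when any single DMSO or ML-792 library was left out, and was 0.0552 to 0.0832 without DNR replicate 2 or 3 or without ML-792+DNR replicate 1 or 3. With replicates 2 and 3 only it was 0.536, and with the replicate number as a block the edgeR adjusted p was 0.00846.

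The other 6 tested members had edgeR adjusted p-values of 0.974 or more under ML-792 alone. DUSP10 was at 15, 16.1 and 14.2 CPM, overlapping DMSO, with a log2 difference of 0.23 ± 0.11. DUSP16 was at 6.91, 6.98 and 6.82 CPM, with a log2 difference of 0.03 ± 0.12. These intervals, from 0.00 to 0.47 and from -0.23 to 0.30, hold no 2-fold change. DUSP2, at 8.74, 9.87 and 10.1 CPM, had 0.33 ± 0.27, and its libraries lay above those of DMSO without overlap, which held for 4.51% of tested genes. DUSP5 had 0.12 ± 0.19 and DUSP4 had -0.29 ± 0.21. DUSP1 was counted with 6, 10 and 4 reads, and its 95% interval from -0.17 to 1.69 leaves its response to ML-792 largely undetermined.

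When both drugs were given, 3 of the 7 tested members were called higher than in DMSO (DUSP1, DUSP5 and DUSP10), beside 3.93% of tested genes. Again DUSP1 was tested only because of its reads in the DNR-treated groups. DUSP16 and DUSP4 passed the adjusted p at a change under 2-fold, so that 5 of the 7 passed it upwards, beside 17.0% of tested genes. DUSP5 was at 16.4, 11 and 12.6 CPM in ML-792+DNR, almost the values it had under DNR, with replicate 1 again the highest. DUSP1 was counted with 21, 33 and 25 reads. Their log2 fold changes over DMSO were 1.32 ± 0.18 (edgeR adjusted p = 0.000166) and 2.78 ± 0.36 (edgeR adjusted p = 9.38e-05).

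DUSP10 stood at 27.7, 25.2 and 29.1 CPM in ML-792+DNR, above all libraries without DNR and below all with DNR alone. Its log2 fold change over DMSO was 1.09 ± 0.11 (edgeR adjusted p = 1.41e-05). DUSP16, at 12.7, 9.85 and 10.9 CPM, took the same intermediate place and had 0.72 ± 0.12 (edgeR adjusted p = 0.000698). DUSP4, at 6.08, 7.14 and 6.75 CPM, had 0.61 ± 0.21 (edgeR adjusted p = 0.0350), and the adjusted p was below 0.05 in 12 of 19 alternative settings, the highest being 0.154 without DMSO replicate 1.

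DUSP2 in ML-792+DNR was again spread, with 7.69, 16.5 and 13.2 CPM. Replicate 1 lay inside the DMSO range while the others lay above it, the same order of replicates as under DNR alone. The log2 difference over DMSO was 0.72 ± 0.27 (edgeR adjusted p = 0.0517). With the replicate number as a block it was 0.65 (edgeR adjusted p = 0.0188), without ML-792+DNR replicate 1 it was 0.96 (edgeR adjusted p = 0.0120) and without replicate 2 of that group 0.46 (edgeR adjusted p = 0.208). DUSP6, at 70.3, 57.5 and 71.9 CPM, had -0.06 ± 0.09 (edgeR adjusted p = 0.651).

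The effect of DNR in cells that also received ML-792 was read against ML-792 alone. DUSP1 and DUSP5 were called higher, 2 of the 7 tested members beside 3.68% of tested genes, with log2 fold changes of 2.02 ± 0.33 (edgeR adjusted p = 0.000624) and 1.20 ± 0.18 (edgeR adjusted p = 0.000388). By the adjusted p alone 6 members were higher, as were 16.3% of tested genes. Both counts include DUSP1, which was tested only because of its reads in the DNR-treated groups. DUSP10, at 0.86 ± 0.11 (edgeR adjusted p = 9.69e-05), DUSP16, at 0.69 ± 0.12 (edgeR adjusted p = 0.00107), and DUSP4, at 0.90 ± 0.21 (edgeR adjusted p = 0.00579), fell short of 2-fold, although DUSP4 reached 1.03 (edgeR adjusted p = 0.00816) without ML-792 replicate 2. DUSP6 was among those that rose here, by 0.45 ± 0.09 (edgeR adjusted p = 0.00313), which brought it from the low level under ML-792 back into the range of the DMSO libraries in replicates 1 and 3. DUSP2 had 0.38 ± 0.27 (edgeR adjusted p = 0.287), with 0.63 (edgeR adjusted p = 0.0786) without ML-792+DNR replicate 1 and 0.12 (edgeR adjusted p = 0.758) without replicate 2 of that group. DUSP5 fell to 0.97, under the 2-fold limit, with replicates 2 and 3 only.

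**Figure D3:**
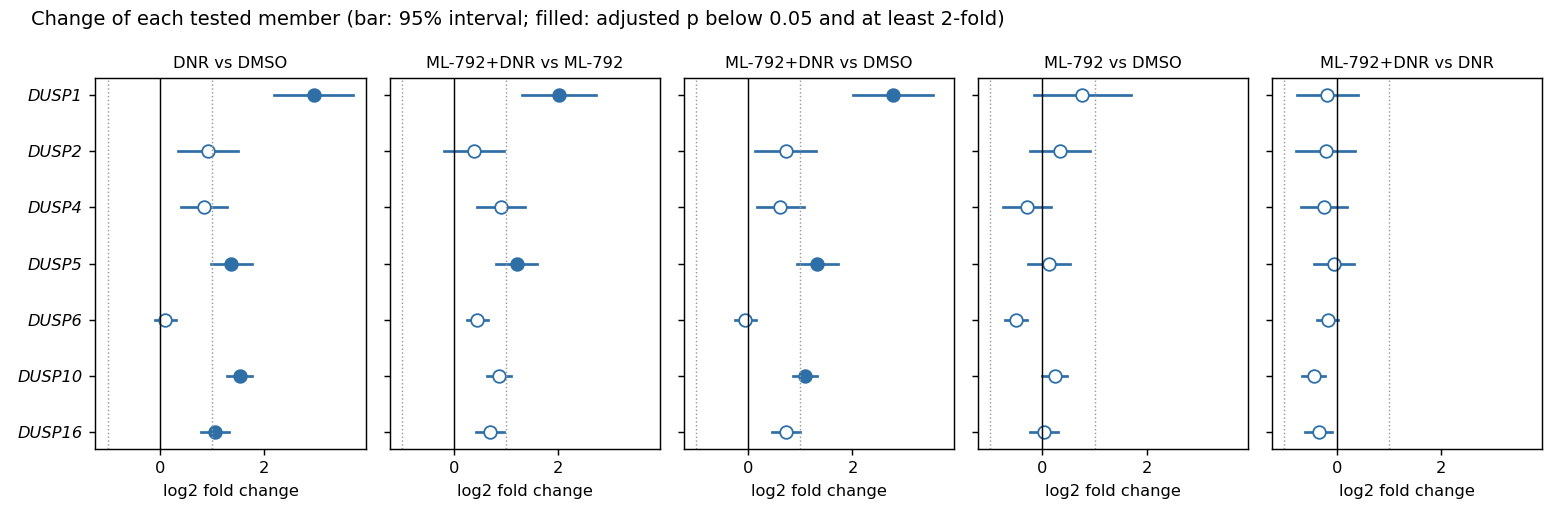
Points give the log2 fold change of each tested phosphatase gene in 5 comparisons and bars its 95% interval, with filled points for called genes and dotted lines at 2-fold. In DNR vs DMSO, 4 points are filled and the point of DUSP6 lies at 0.11, while in ML-792 vs DMSO and in ML-792+DNR vs DNR no point is filled.

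Whether ML-792 altered the levels reached under DNR was tested by comparing ML-792+DNR with DNR alone. No member was called, and 0.197% of all tested genes were. DUSP10 came nearest. All 3 ML-792+DNR libraries, at 25.2 to 29.1 CPM, lay below all 3 DNR libraries, at 35.6 to 38.4 CPM, and so did those of DUSP16, a separation downwards that 9.86% of tested genes had. The log2 difference of DUSP10 was -0.44 ± 0.11 (edgeR adjusted p = 0.0781), with a 95% interval from -0.67 to -0.21. With the replicate number as a block the edgeR adjusted p was 0.0272, and by DESeq2 it was 0.00519, the 2 of 19 alternative settings in which it was below 0.05. In none of them did the change reach 2-fold. DUSP16 had -0.34 ± 0.12 (edgeR adjusted p = 0.240).

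For the other tested members the differences from DNR alone were -0.17 for DUSP1, -0.21 for DUSP2, -0.23 for DUSP4, -0.05 for DUSP5 and -0.17 for DUSP6 on the log2 scale, with edgeR adjusted p-values of 0.502 to 0.934. None of their intervals holds a 2-fold change. They were narrowest for DUSP6, from -0.37 to 0.04, and widest for DUSP1, from -0.76 to 0.42, and DUSP2, from -0.77 to 0.36.

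A test of the interaction asked whether the response to DNR differed with ML-792. No member and none of the 13696 genes was called by edgeR, and 493 genes, 3 of them members, had an unadjusted p below 0.05. Given side by side, the log2 response of DUSP10 to DNR was 1.53 without and 0.86 with ML-792, a difference of -0.67 ± 0.15 (edgeR adjusted p = 0.715). DESeq2 gave this difference an adjusted p of 0.0255 and called 7 genes in all, none of them a member. For DUSP16 the responses were 1.06 and 0.69, a difference of -0.37 ± 0.17 (edgeR adjusted p = 0.999). DUSP6 went the other way, with 0.11 and 0.45 and a difference of 0.34 ± 0.13 (edgeR adjusted p = 0.999). The differences of DUSP1 (-0.94 ± 0.51), DUSP2 (-0.54 ± 0.38), DUSP5 (-0.18 ± 0.26) and DUSP4 (0.06 ± 0.29) were each less than 2 times their standard errors. These responses share libraries, so that noise in the DMSO or DNR libraries moves several of them at once.

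The members varied among themselves over the 12 libraries. Pearson's r of log2 CPM was 0.961 between DUSP10 and DUSP16, 0.956 between DUSP1 and DUSP10, and 0.954 between DUSP5 and DUSP16. Between DUSP5 and DUSP2, both raised by DNR on average, it was only 0.444, and between DUSP2 and DUSP6 it was 0.0101. Libraries of a group share their treatment, so these values describe mainly the 4 group levels and, for DUSP2, the order of the replicates. The value of DUSP1 rests on at most 34 reads per library, in a gene tested only because of its reads in the DNR-treated groups.

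The genes whose pattern was most like that of a member were sought among 9613 genes with at least 5 CPM in a group, by the same r over the 12 libraries. For DUSP5 these were BTG1 (r = 0.994), SLC6A8 (0.992) and PIM2 (0.991). For DUSP16 they were ELL2 (r = 0.992), ZNF597 (0.987) and SAT1 (0.985), and for DUSP10 they were OAS3 (r = 0.987), CDKN2B (0.986) and IFIH1 (0.982). DUSP2 came with GNL1 (r = 0.944), FOXJ2 (0.899) and LGALSL (0.895), and DUSP4 with RNF5P1 (r = 0.942), XK (0.941) and HYAL3 (0.941). DUSP6 had CHMP7 (r = 0.922), ITPRIP (0.900) and PLEK (0.895). The lists of the 3 most alike genes shared no gene between members.

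The rest of the pathway, in 8 lists of 146 genes, had called genes under DNR in 1 list only. The list of other dual-specificity phosphatases included DUSP7 and DUSP9, relatives of DUSP6 in the ERK-selective branch, so the 8 members are not the whole family. Of 11 tested MAP kinases, 29 kinases of MAP kinases and their upstream kinases, 11 kinases activated by MAP kinases, 13 other dual-specificity phosphatases, 10 other phosphatases of MAP kinases, 15 Sprouty, SPRED and further inhibitors of RAS and ERK, and 12 scaffold genes, none was called in either direction, while 6.98% of all tested genes were. The medians of these 7 lists lay between -0.25 and 0.08 on the log2 scale, beside 0.01 for all tested genes and 1.06 for the 7 tested members. The median of the members includes DUSP1, which was tested only because of its reads in the DNR-treated groups. By the adjusted p alone, which 30.0% of all tested genes passed in either direction, 1 MAP kinase was higher and 3 lower, 1 and 6 of the kinases of MAP kinases and their upstream kinases, 0 and 2 of the kinases activated by MAP kinases, 2 and 1 of the other dual-specificity phosphatases, 2 and 2 of the other phosphatases, 2 and 6 of the inhibitors, and 1 and 1 of the scaffold genes. The other dual-specificity phosphatases among these are named after their values were seen: DUSP3 fell by 0.98 (edgeR adjusted p = 0.0165), and DUSP28 and STYX rose by 0.61 (edgeR adjusted p = 0.0445) and 0.31 (edgeR adjusted p = 0.0153).

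The transcription factors and early genes that respond to MAP kinases were the exception. Of 25 tested, 9 were called higher and none lower under DNR, beside 4.07% and 2.91% of all tested genes. This list was chosen with earlier results of these data known. The rises were led by the early response gene IER3 at 5.97 ± 0.30 (edgeR adjusted p = 3.24e-08), the AP-1 subunits JUN at 4.81 ± 0.31 (edgeR adjusted p = 3.95e-07) and FOSB at 4.58 ± 0.30 (edgeR adjusted p = 4.00e-07), and the stress factor ATF3 at 4.12 ± 0.26 (edgeR adjusted p = 3.16e-07). The median of the list, 0.03, was near that of all genes. The responses of the phosphatase genes, at most 2.95 in the low-count DUSP1, were thus below those of the leading transcription factors on the same scale.

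**Figure D4:**
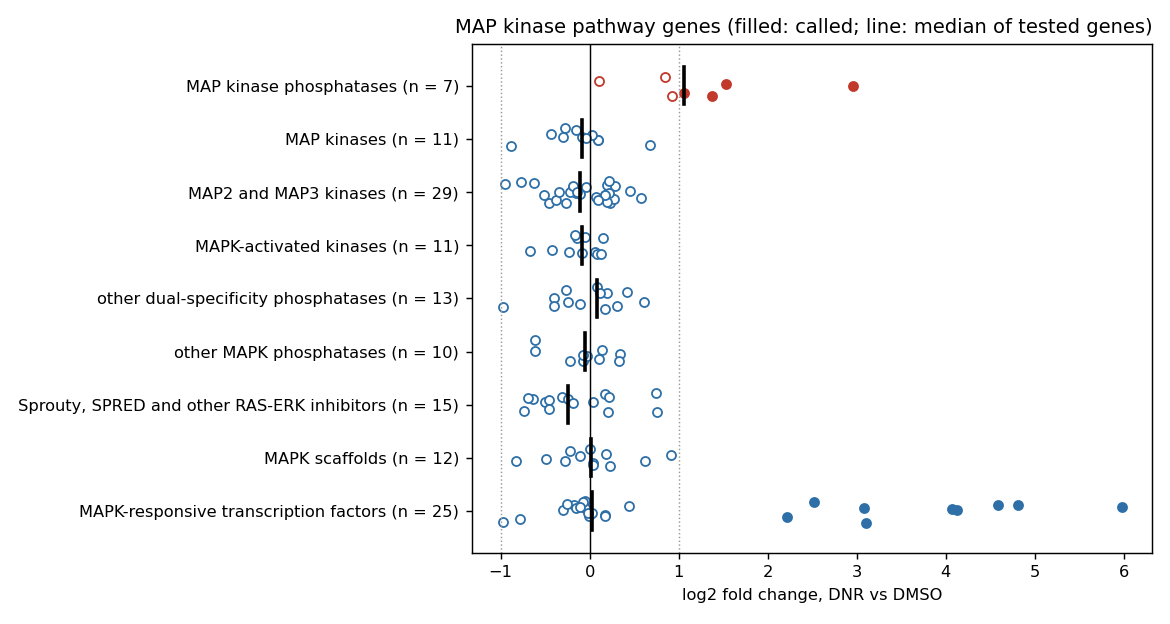
Points give the log2 fold change of each tested gene in DNR vs DMSO for the phosphatases and the 8 pathway lists, with filled points for called genes and a vertical bar at the median of each list. Filled points occur in the row of the phosphatases (4 of 7, DUSP1 among them) and of the transcription factors (9 of 25) only. DUSP1 was tested only because of its reads in the DNR-treated groups.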

How the data were processed

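Polyadenylated RNA of 12 HL-60 libraries was sequenced as single-end reads from a stranded kit. Reads were mapped by the authors to GRCh37 (hg19) using TopHat2 2.1.1, which ran Bowtie2 2.3.5.1. HTSeq 0.11.1 then gave raw counts per gene, and these deposited counts were used here. Cufflinks 2.2.1, Picard and DESeq2 are also named in the submitters' processing notes. The annotation and strand setting of this counting were not given in the sources used here. A deposited table of scaled counts and one of the authors' own comparisons (group means, log2 fold changes and p-values) were not used. The 5 HTSeq counter lines were left out, and 65.3% to 67.4% of records were in genes.

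All 12 libraries entered 1 fit with a term for group, by the quasi-likelihood test of edgeR 4.0.16 (R 4.3.3) on TMM-scaled library sizes (factors 0.954 to 1.04). Of 42157 genes, 13696 passed filterByExpr by group (minimum count 10, minimum total 15). Called means a Benjamini-Hochberg adjusted p below 0.05 over all tested genes and at least 2-fold. The 6 comparisons set each drug group against DMSO, set ML-792+DNR against DNR and against ML-792, and tested the interaction, and they share libraries. No exact permutation test was used, since 3 against 3 libraries give p = 0.1 at best. CPM used TMM-scaled library sizes, correlations log2 CPM with a prior count of 2, and RPKM exon-union lengths of a GENCODE annotation on GRCh37. Promoters came from RefSeq on GRCh38.p14. The 95% intervals were built on the standard errors of the edgeR fit, which take in the spread between replicates. The floor of 3 counts behind a count of 0 covers counting error only. No library was a copy of another: the chi-square per gene between replicates was 16.1 to 79.1. The scripts were tested on simulated data.

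The members, gene lists and alternatives were chosen with earlier results of these data known. All members are named in every comparison, in each pathway list up to 4 called genes with the largest change, and the 3 most alike genes of each member with at least 5 CPM in a group. Alternatives were leaving out each library, no fold minimum, scaling by library size only or by median-of-ratios size factors, no count filter, only the groups compared, a replicate block and DESeq2 1.42.0. Using replicates 2 and 3 only was added after seeing the data. Pairing by replicate number was checked from the correlation of deviations from group means: r was 0.0722 to 0.587 for the 18 pairs with the same number and -0.498 to 0.0913 for the 36 with different numbers. All pairs were above 0.1 in 4 comparisons, but not in DNR vs DMSO (lowest r 0.0852) or the interaction.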

Additional observations from a re-analysis of the deposited data

How the results depend on the processing

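Of 790 values of single members under the alternatives, 770 kept their direction and their side of the call, 5 gained the call, 3 lost it and 12 turned direction, none of them called. Without the fold minimum the members called numbered 6 in place of 4 in DNR vs DMSO and 1 in place of 0 in ML-792 vs DMSO. In ML-792+DNR vs DMSO they numbered 5 in place of 3, and in ML-792+DNR vs ML-792 6 in place of 2. These rises follow by construction. With replicates 2 and 3 only, ML-792+DNR vs ML-792 had 1. The changes that turned were those of DUSP16 in ML-792 vs DMSO (-0.019 to 0.084 without single libraries, lowest without DMSO replicate 1, and -0.014 with replicates 2 and 3 only), DUSP6 in ML-792+DNR vs DMSO (-0.12 to 0.035, highest without ML-792+DNR replicate 2), DUSP2 in ML-792+DNR vs DNR (-0.47 to 0.11, with 0.11 without DNR replicate 2 and 0.05 without ML-792+DNR replicate 1), DUSP5 there (-0.22 to 0.15, with 0.15 without DNR replicate 1 and 0.07 without ML-792+DNR replicate 2) and, in the interaction, DUSP4 (-0.13 to 0.20, below 0 without replicate 2 of DMSO or replicate 1 of DNR or of ML-792, and -0.0086 with replicates 2 and 3 only) and DUSP5 (-0.35 to 0.028, highest without DNR replicate 1). The cause was not tested.

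Over all genes, the 956, 888 and 868 calls of DNR vs DMSO, ML-792+DNR vs DMSO and ML-792+DNR vs ML-792 became 568, 496 and 446 with replicates 2 and 3 only, and 4108, 4843 and 4626 without the fold minimum. The 11 calls of ML-792 vs DMSO became 21 by DESeq2, 27 without the count filter, 25 with the replicate block, 33 without the fold minimum, 4 with replicates 2 and 3 only and 5 to 15 with 1 library left out. The 27 of ML-792+DNR vs DNR became 44 without the count filter, 52 with the block, 8 with these groups only, 102 without the fold minimum, 2 with replicates 2 and 3 only and 1 to 25 without single libraries, the lowest without DNR replicate 3. The interaction, with none, had 7 by DESeq2, 11 without the count filter, 1 with the block and at most 1 without single libraries.

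The block changed no member call; beside DUSP10 and DUSP2 in the comparisons given above it moved no member across the adjusted p of 0.05. No scaling moved the median of all genes by 0.1 or more. Each scaling is relative to the reads of a library, so that a change in total RNA per cell would not show. Depth limits DUSP8 and DUSP1, whose counts per library were at most 4 and 34.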

Other observations

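The feedback inhibitor gene SPRY4, which like DUSP5 and DUSP6 restrains ERK signalling, responded to ML-792. It stood at 0.515 ± 0.173 CPM in DMSO, 0.315 ± 0.0752 in DNR, 3.31 ± 1.04 in ML-792 and 1.76 ± 0.566 in ML-792+DNR (SD, n = 3). It was called higher in ML-792 vs DMSO, with a log2 fold change of 2.69 ± 0.33 (edgeR adjusted p = 0.00395), and in ML-792+DNR vs DNR, with 2.49 ± 0.37 (edgeR adjusted p = 0.0127). SPRY4 was also called higher in ML-792+DNR vs DMSO. In each of these comparisons it was the only called gene among the 15 tested inhibitors.

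Of the 25 tested transcription factors and early genes, IER3 alone was called under ML-792, at 2.81 ± 0.31 (edgeR adjusted p = 0.00137). In ML-792+DNR vs DNR the factors EGR2, at -2.58 ± 0.49 (edgeR adjusted p = 0.0303), and EGR1, at -1.10 ± 0.22 (edgeR adjusted p = 0.0391), were called lower. EGR1 stood at 19.0 ± 5.28 CPM in DMSO, 109 ± 17.9 in DNR and 50.8 ± 16 in ML-792+DNR. In ML-792+DNR vs DMSO, 8 of the 25 were called higher and MEF2D lower, beside 3.93% and 2.56% of all tested genes. In ML-792+DNR vs ML-792, 8 were called higher, beside 3.68% of all tested genes. Among the other dual-specificity phosphatases 1 of 13 was called in any comparison, DUSP23 in ML-792+DNR vs DMSO, at 1.11 ± 0.31 (edgeR adjusted p = 0.0144), and among the scaffolds MAPK8IP1 was called lower there, at -1.35 ± 0.28 (edgeR adjusted p = 0.00268), and MAPK8IP2, at under 0.6 CPM on average, higher in ML-792+DNR vs ML-792, at 1.60 ± 0.58 (edgeR adjusted p = 0.0479).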
